A study of Mus musculus with 25 samples.

Results

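The cells described here are mesothelial-like cells found in single-cell RNA sequencing of Lin– mouse lung cells. After cells with 200 to 7500 detected genes and at most 20% mitochondrial UMIs (unique molecular identifiers, 1 per captured transcript) were kept, members were selected on measured UMIs: a cell was taken when at least 2 of Upk3b, Msln and Lrrn4 had a UMI, when these genes held 3 or more UMIs together, and when the endothelial gene Cdh5 had none. This gave 530 members of 12059 kept cells (4.40%), from 13900 deposited barcodes. The study asked how loss of the death receptor Fas in fibroblasts affects lung fibrosis after intratracheal bleomycin, and the sort removed CD45+ hematopoietic, CD31+ endothelial and CD326+ epithelial cells, so that the remaining cells are Lin–.

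All mice carried Col1a1-Cre-ERT2, a tamoxifen-inducible Cre driven by the Col1a1 promoter, and floxed Fas alleles (Fas fl/fl). Fas-/- mice received bleomycin and tamoxifen, Fas+/+ mice received bleomycin and corn oil, and naive mice received no bleomycin, so that deletion of Fas and tamoxifen cannot be told apart. The age of the mice is not given in the sources used here. The single-cell data hold 5 libraries, naive, Fas+/+ and Fas-/- at 3 weeks and Fas+/+ and Fas-/- at 6 weeks, each made from a pool of 4 mice. Bulk RNA-seq of Lin– cells holds 20 libraries, 4 in each of the same 5 groups, with 11819700 to 25189100 counts each. The labels number the 4 bulk libraries of a group without naming mice, the study's methods count animals as replicates, and p-values measure the spread between these libraries.

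Mesothelium is the flat epithelial sheet that covers the lung surface and lines the pleural cavity. It arises from mesoderm, and its cells hold keratins and tight junctions beside genes that are otherwise typical of mesenchyme, such as vimentin. Its markers include the transcription factor Wt1. Mesothelial cells bear microvilli, make a lubricating coat and regulate fibrin turnover, and in the embryonic lung they send growth signals to the tissue beneath.

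The genes of the rule are surface proteins: Upk3b encodes uroplakin 3B, Msln encodes mesothelin, a lipid-anchored glycoprotein, and Lrrn4 encodes a leucine-rich repeat membrane protein. In GRCm38 (GENCODE vM21 annotation) Upk3b lies at chr5:136038496-136046487 on the plus strand, Msln at chr17:25748613-25754378 on the minus strand, Lrrn4 at chr2:132868305-132880891 on the minus strand, Gpm6a at chr8:54954843-55060871 on the plus strand and Wt1 at chr2:105126529-105173616 on the plus strand. The proximal promoters of Upk3b and Lrrn4 are shown because these genes chose the cells and moved together in bulk. The sequences are from RefSeq (GRCm38.p6), at chr5:136038246-136038495 (plus strand) and chr2:132880892-132881112 (minus strand), 5′ to 3′ on the strand of the gene. Capitals mark the letters GGAATG on either strand, the core of the motif of TEAD factors, which act at the end of the Hippo pathway.
Upk3b: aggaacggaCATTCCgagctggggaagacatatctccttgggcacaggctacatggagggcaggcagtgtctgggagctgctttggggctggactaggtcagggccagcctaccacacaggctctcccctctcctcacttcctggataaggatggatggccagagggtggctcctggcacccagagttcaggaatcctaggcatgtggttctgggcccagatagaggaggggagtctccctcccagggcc
Lrrn4: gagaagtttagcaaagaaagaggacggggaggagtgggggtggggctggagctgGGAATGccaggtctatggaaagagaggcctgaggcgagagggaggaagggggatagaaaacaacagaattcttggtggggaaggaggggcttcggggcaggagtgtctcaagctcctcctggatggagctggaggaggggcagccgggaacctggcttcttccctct
The match lay 241 bases before the start of Upk3b and 196 bases before the RefSeq start of Lrrn4, and 29 bases next to that start were left out because the annotation places them in the first exon. Of 19 windows of 250 bases before starts that matched 18 of the 24 genes on the mesothelial list below, 5 held these letters (26.3%), against 12.6% of 32851 windows of all genes. The letters GTGGGAG, a core bound by WT1-type zinc fingers, were searched in the same way on both strands and were in none of the 19 windows and in 8.25% of all windows. For the 49 member-specific genes described below, 60 windows matched 40 genes, and 12 of these windows (20%) held GGAATG and 4 (6.67%) held GTGGGAG. A match of letters describes the window and no binding was measured.

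Before any level is read, the libraries have to be set against each other, because cell barcodes recurred between them. Any pair of libraries shared between 91 and 289 barcodes, and naive shared 269 of its 766 barcodes (35.1%) with Fas-/- 3 weeks and 286 (37.3%) with Fas-/- 6 weeks. For barcodes that were members in naive and in a second library the UMI ratio lay in a narrow range, 10.0 to 12.2 for naive over Fas-/- 6 weeks, 12.9 to 16.02 over Fas+/+ 6 weeks, 16.5 to 20.5 over Fas-/- 3 weeks and 22.5 to 26.9 over Fas+/+ 3 weeks. Between bleomycin libraries it ran from 0.673 to 73.9 for Fas+/+ over Fas-/- at 3 weeks (median 0.743), from 0.578 to 32.3 for Fas-/- 3 weeks over Fas-/- 6 weeks (median 25.6), and from 0.737 to 1.59 for Fas+/+ over Fas-/- at 6 weeks (median 0.787). Of 410 distinct member barcodes, 313 were in 1 library and 21 in all 5, and 21 of the 22 naive members had their barcode in another library. In all, 124 members (23.4%) were the copy with fewer UMIs of a barcode seen elsewhere, numbering 0 in naive, 15 in Fas+/+ 3 weeks, 18 in Fas-/- 3 weeks, 28 in Fas+/+ 6 weeks and 63 in Fas-/- 6 weeks. These copies held 2.34% of the members' UMIs. Shares of cells are therefore given with and without them, and the cause of the shared barcodes was not tested.

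Mesothelial-like cells made up 3.65% of cells in naive (22 of 603, 95% exact Clopper-Pearson interval 2.30 to 5.47), 4.77% in Fas+/+ 3 weeks (127 of 2664, 3.99 to 5.65) and 5.75% in Fas-/- 3 weeks (150 of 2608, 4.89 to 6.72). At 6 weeks they were 2.75% in Fas+/+ (89 of 3240, 2.21 to 3.37) and 4.82% in Fas-/- (142 of 2944, 4.08 to 5.66). The intervals at 6 weeks did not overlap between the genotypes, but cover counting error alone, and with 1 library a condition no test between conditions was possible. Without the barcode copies the shares were 3.72%, 4.37%, 5.70%, 1.99% and 3.14% in the same order. Endothelial-like cells (at least 2 of Cdh5, Pecam1 and Cldn5, with a sum of 3 or more UMIs) were 40.1% of Fas+/+ 6 weeks and 1.49% to 9.31% of the other libraries. Without copies and per cell outside the endothelial-like class, Fas+/+ 6 weeks stood at 3.46% (2.65 to 4.42) and Fas-/- 6 weeks at 3.49% (2.77 to 4.33). With copies kept, the shares outside the endothelial-like class were 4.59% (3.698 to 5.61) and 5.27% (4.46 to 6.19). Without copies and on the same denominator the 3-week shares were 4.83% (3.99 to 5.79) and 6.22% (5.23 to 7.33), and naive was 3.78% (2.38 to 5.67).

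**Figure D1:**
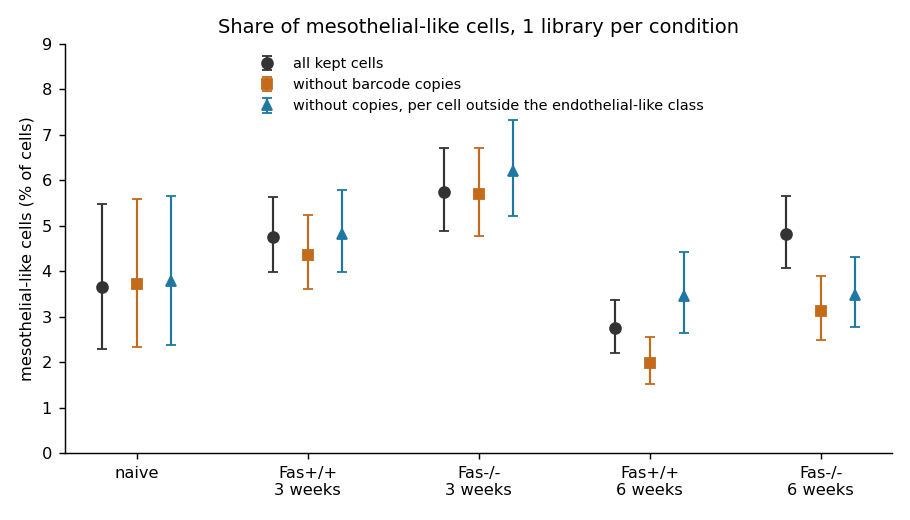
Share of mesothelial-like cells (y axis, percent of cells) in each single-cell library (x axis), with all kept cells, without barcode copies, and without copies per cell outside the endothelial-like class; bars are 95% exact binomial intervals and cover counting error only. The gap between Fas+/+ and Fas-/- at 6 weeks, 2.75% against 4.82% of all kept cells, is 1.99% against 3.14% without copies and 3.46% against 3.49% with both changes.

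Members held more UMIs per cell than other cells. Their median was 23718 UMIs in naive, 19216 and 10830 at 3 weeks (Fas+/+, Fas-/-) and 12839 and 11144 at 6 weeks, against 7561, 8684, 5550.5, 7110 and 8659.5 in all other cells. Without barcode copies the members' medians were 23718, 20490, 11550, 19951 and 18817 UMIs in the same order, the copies of the 6-week libraries having medians of 1358 and 685 UMIs. The requirement for 3 marker UMIs itself favours cells with many UMIs. Among cells thinned to 3000 UMIs the median number of genes was 1521 to 1578 in members and 1463 to 1553 in other cells. Cells with too few UMIs to be thinned were left out, among them 1, 22, 23, 30 and 62 members (naive, Fas+/+ 3 weeks, Fas-/- 3 weeks, Fas+/+ 6 weeks, Fas-/- 6 weeks). Only 1 member had 3 or more mitotic genes, against 120 other cells (1.04%).

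The markers that chose the cells give a description and no test. All 3 genes were detected in 439 of 530 members (82.8%), Upk3b with Msln in 58, Upk3b with Lrrn4 in 28 and Msln with Lrrn4 in 5. In UMIs summed over members and scaled to library size (CPM, the share of the summed UMIs on a common scale), Upk3b stood at 3120 in naive, 2195 and 1852 at 3 weeks (Fas+/+, Fas-/-) and 1980 and 2424 at 6 weeks, against a mean of 10.9 in all other cells. Msln stood at 3926, 2076, 2333, 2670 and 2987 in the same order, against 10.8 in other cells, and Lrrn4 at 953, 785, 662, 646 and 741, against 3.17. The criterion on Cdh5 dropped 23 cells that met the rest of the rule, 12 of them in Fas+/+ 6 weeks.

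The edge of the rule was examined through Wt1 and Gpm6a, which the rule did not use. In the 18 members with exactly 3 marker UMIs Wt1 was at 485 CPM and Gpm6a at 354 CPM, but Wt1 had UMIs in 4 of these cells alone, with 41 of its 63 UMIs in 1 naive cell and 16 in 1 Fas+/+ 3 weeks cell, and Gpm6a had UMIs in 14. Without barcode copies 6 of the 18 were left, with Gpm6a at 221 CPM. In the 416 members with 10 or more, Wt1 was at 312 CPM (358 cells) and Gpm6a at 1587 CPM (411 cells). Just outside, in 34 cells with 2 markers and 2 UMIs, Wt1 was at 19.2 CPM and Gpm6a at 42.2 CPM while Pdgfra, a receptor that marks fibroblasts, was at 586 CPM. Another 12 cells had 3 or more UMIs of a single marker, with Wt1 at 555 CPM, Gpm6a at 379.6 CPM and Pdgfra at 38.9 CPM.

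Wt1 and Gpm6a, the 2 named markers outside the rule, were both higher in members than in all other cells in each of the 5 libraries. Gpm6a, a membrane glycoprotein that shapes cell protrusions, stood at 1833 CPM in naive, 1638 and 1563 at 3 weeks and 1304 and 1483 at 6 weeks (Fas+/+, Fas-/- each), against a mean of 12.3 CPM in other cells (log2 fold change 7.01, SE 0.35, adjusted p = 1.6e-07). Wt1 stood at 329, 362, 248, 388 and 271 CPM against 10.0 (log2 fold change 5.16, SE 0.30, adjusted p = 4.1e-07). At least 1 of both genes was detected in 503 members (94.9%). Here and below, UMIs were summed per library over members and over other cells, and the sums were compared with edgeR's quasi-likelihood test with the library as a block (n = 5 libraries). Of 12761 genes tested, 23.6% were called higher and 26.6% lower at a Benjamini-Hochberg adjusted p of 0.05, and counts of list genes are to be read against these shares.

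The label was checked against a list of 24 mesothelial markers and structural genes, of which 3 belong to the rule. Itln1 and Calb2 had no UMI in any member, and all 19 tested were higher in members (median log2 fold change 4.91, against −0.04 over all genes). Among surface proteins Muc16, the mucin that binds mesothelin, was at 495 CPM in members and 3.05 in other cells (7.34, SE 0.25), and Upk1b, a uroplakin-binding tetraspanin, at 702 and 102 CPM (2.81, SE 0.15). Among keratins, intermediate filament proteins of epithelia, Krt19 was at 1616, 953, 902, 832 and 897 CPM in the order naive, 3 weeks and 6 weeks, against 21.4 in other cells (5.70, SE 0.37). Krt18, Krt8 and Krt7 were higher by 4.91, 4.33 and 4.28 on the log2 scale. Ezr, which encodes ezrin, the linker of actin to the membrane of microvilli, was at 1295 CPM against 55.4 (4.55, SE 0.14). Igfbp5, a secreted binding protein of insulin-like growth factors, was at 8344, 7686, 5889, 7168 and 6833 CPM against 247 (4.89, SE 0.14).

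As a measure of how far free RNA could give these signals, detection was set beside endothelial-like cells, which should lack them and had medians of 3653 to 5334 UMIs per library against 10830 to 23718 in members. Gpm6a had a UMI in 93.6% of members and 4.598% of endothelial-like cells, Wt1 in 73.0% and 0.8996%, Krt19 in 88.7% and 1.80%, and Bnc1, a zinc-finger transcription factor, in 57.7% and 0.550%. Dcn, a matrix proteoglycan of fibroblasts, had a UMI in 97.0% and 24.7%, and Fas in 27.9% of members and 60.4% of endothelial-like cells.

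**Figure D2:**
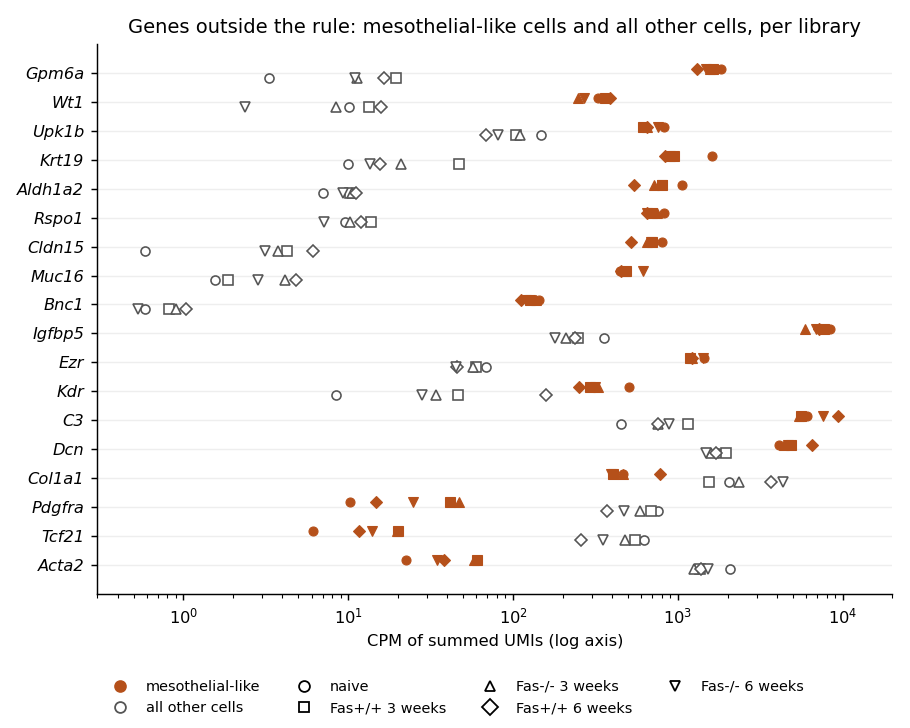
CPM of summed UMIs (x axis, log scale) for genes outside the rule (y axis) in mesothelial-like cells (filled) and all other cells (open), 1 symbol per library. Wt1 in members (248 to 388 CPM) lies above other cells in all 5 libraries, whereas Acta2 in members (mean 42.8 CPM) lies below them.

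Genes of cell junctions separated members from fibroblasts and from epithelium. Of 18 junction genes tested, 13 were higher and 3 lower than in all other cells. Cldn15 and Cldn10, claudins of tight junctions, were higher by 7.45 (SE 0.35) and 5.74, the desmosomal cadherin Dsg2 by 5.32, and P-cadherin (Cdh3) by 4.27 (SE 0.28, 28.95 against 1.63 CPM). E-cadherin (Cdh1) was lower in members, at 0.645 CPM against 5.12 (log2 fold change −2.82, SE 0.48), as were Ocln (−2.39) and N-cadherin (Cdh2, −1.42). Epcam, the antigen of the epithelial depletion, had 0 UMIs in members of 4 libraries and 1.74 CPM in Fas+/+ 3 weeks.

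Alveolar epithelial-like cells (at least 2 of Epcam, Lamp3 and Cldn18) were compared in the 3 libraries with 10 or more cells of both classes, which held 44 (Fas+/+ 3 weeks), 21 (Fas+/+ 6 weeks) and 20 (Fas-/- 6 weeks) of the 95 such cells. Against them 23.3% of 9766 genes were called higher in members and 19.2% lower. Of 17 junction genes tested 7 were higher in members and 10 lower. Cdh1 was at 0.869 CPM in members of these libraries and 378 CPM in epithelial-like cells, and Ocln at 1.74 and 216 CPM, while Cldn15 was at 631 and 1.47 CPM. Krt19 was at 894 and 861 CPM and was not called (log2 fold change 0.05, SE 0.21, adjusted p = 0.86), and Krt8 was lower in members by 2.13 on the log2 scale. All 15 transcription factors tested of the list that follows, and 12 of 14 complement and acute-phase genes, were higher in members than in epithelial-like cells.

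Of 16 transcription factors tested, 11 were higher and 4 lower than in all other cells. Bnc1 was at 143, 126, 138, 112 and 119 CPM in the order naive, 3 weeks and 6 weeks, against 0.775 in other cells (7.26, SE 0.16). Gata4 and Gata6, zinc-finger factors of the heart and other organs, were higher by 5.41 (SE 0.30) and 2.93, Tbx18, a T-box factor of the embryonic mesothelium and epicardium, by 4.58 (SE 0.16) and Sox6 by 4.00. Tcf21, a factor of lung lipofibroblasts, was at 14.3 CPM against 451 (−4.81, SE 0.20), and the lung T-box factors Tbx2, Tbx5 and Tbx4 were lower by 2.12, 1.51 and 1.32.

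Contractile and collagen genes were lower in members. Of 14 genes of mesenchymal transition, 11 were lower and only Twist1 was higher (1.37). Acta2, smooth muscle actin, was at 42.8 CPM against 1517 (log2 fold change −5.07, SE 0.26), Tagln at 30.9 against 1313 (−5.35, SE 0.20), and the transcription factors Snai1 and Snai2 were lower by 3.47 and 3.18. Vimentin (Vim), the intermediate filament of mesenchymal cells, was at 2248 CPM in members and 2296 in other cells (−0.04, SE 0.09, adjusted p = 0.77). Of 18 fibrotic matrix genes, 16 were lower and Loxl2 was higher (0.88). Col1a1, whose promoter drives the Cre, was at 466 CPM in naive members, 402 and 462 at 3 weeks and 777 and 393 at 6 weeks (Fas+/+, Fas-/-), against a mean of 2789 in other cells (−2.43, SE 0.21). Postn, Tnc and Cthrc1, genes of activated fibroblasts, were lower by 4.64, 5.45 and 5.98.

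Matrix of the basement membrane split by gene rather than moving together. Of 15 tested, 6 were higher and 8 lower. The laminin chains of epithelia Lama3 (in 4 of 5 libraries) and Lama5 and the nidogen Nid2 were higher by 2.30, 1.91 and 2.75, and Lama2, the laminin chain of mesenchyme and muscle, was at 12.0 CPM against 166 (−3.70, SE 0.23). The type IV collagens Col4a1 and Col4a2 were lower by 2.19 and 2.26. Among 7 genes of hyaluronan and surface lubrication, the synthase Has1 (3.36, SE 0.22) and the lubricin gene Prg4 (4.12, SE 0.25) were higher and 5 lower, including the synthase Has2 (−2.84) and the hyaluronan receptor Cd44 (−1.46). Of 12 genes of fibrinolysis and coagulation 3 were higher, near the share of all genes (23.6%), and 5 lower (median log2 fold change −0.16). Procr, the protein C receptor, was higher by 2.20. S100a10 and Anxa2, the annexin complex that gathers plasmin at the cell surface, were higher by 1.98 and 0.95. Serpine2, a serpin that inhibits thrombin and other serine proteases, and the tissue plasminogen activator Plat were lower by 4.62 and 0.98.

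Secreted signals were split in the Wnt list and mostly lower among growth factors. Of 16 Wnt genes, 7 were higher and 7 lower. Rspo1, an amplifier of Wnt signalling, was at 822, 700, 744, 648 and 652 CPM in the order naive, 3 weeks and 6 weeks against 10.5 (6.08, SE 0.16). Sfrp2, a secreted Wnt modulator, was at 972 CPM against 24.04 (5.38, SE 0.22), Wnt7b was higher by 5.39 and Wnt2b by 4.66, while Wnt2, made by alveolar fibroblasts, was lower by 1.25 and the antagonist Dkk2 by 3.91. Of 21 growth factors, 4 were higher and 13 lower. Fgf9, a signal of the embryonic lung mesothelium, was higher by 4.20 (SE 0.30), with Fgf1, Fgf18 and Tgfb2, whereas Fgf7, Fgf10 and Hgf, ligands from fibroblasts to epithelium, were lower by 4.99, 4.21 and 4.41. Of 10 retinoid genes, 3 were higher, led by Aldh1a2, the enzyme that makes retinoic acid, at 783 CPM against 9.66 (6.27, SE 0.21), and 5 lower, including the binding protein Rbp4 (−4.40). Of 6 binding proteins of insulin-like growth factors, Igfbp5 and Igfbp6 were higher, the latter at 4704 CPM against 512 (3.21, SE 0.18), and 3 lower.

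Genes of complement were higher while several acute-phase genes were lower. Of 16 tested, 9 were higher and 6 lower. C3, the central complement component, was at 6825 CPM against 802 (3.11, SE 0.21), with Cfb, C2 and C4b higher by 3.32, 3.76 and 2.404. Slpi, a secreted protease inhibitor, was higher by 6.74 (SE 0.71), and haptoglobin (Hp) lower by 5.36. None of 10 chemokines was higher and 6 were lower, among them Cxcl12 (−4.84) and Ccl11 (−5.26). Of 12 interferon and MHC class I genes 8 were higher and none lower (median log2 fold change 0.49), and of 4 MHC class II genes none was higher and 1 lower. Of 11 immediate early genes, 8 were lower and none higher, and of 9 cell-cycle genes 7 were lower and none higher.

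Fas itself was lower in members, at 28.6 CPM in naive, 33.03 and 26.6 at 3 weeks and 35.9 and 21.7 at 6 weeks (Fas+/+, Fas-/-), against 58.1, 72.0, 44.9, 102 and 69.0 in other cells (log2 fold change −1.24, SE 0.14, adjusted p = 4.0e-05). The level in Fas-/- members was below that in Fas+/+ members at both times, and the counting intervals overlapped (19.3 to 35.9 CPM in Fas-/- and 26.02 to 41.3 in Fas+/+ at 3 weeks, 15.03 to 30.3 and 26.3 to 47.8 at 6 weeks). The files count the whole gene and do not separate the floxed exon. Of 16 genes of Fas signalling and apoptosis, the survival gene Bcl2l1 (1.03) and the death receptor Tnfrsf10b (1.07) were higher and 6 lower, among them Bcl2 (−0.78), Mcl1 (−0.73) and Cflar (−0.56), which blocks caspase activation at death receptors.

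Markers of other cell types were counted in the same fit. All 6 alveolar fibroblast markers and all 6 smooth muscle and pericyte markers were lower in members, as were all 4 alveolar epithelial and both airway markers tested and 5 of 6 red cell and platelet genes. Of the 5 endothelial markers outside the rule 4 were lower, among them Pecam1, the CD31 antigen (−3.84), while Kdr, a receptor of vascular endothelial growth factor, was higher at 338 CPM against 55.0 (3.06, SE 0.55). Ptprc, the CD45 antigen, had 0 UMIs in members of all 5 libraries. Of 2 hematopoietic markers tested 1 was higher, Csf1r (1.83), and 1 lower. Of 6 adventitial fibroblast markers Dpp4 (4.47, SE 0.40) and Dcn (1.51, SE 0.13) were higher and 3 lower, with Pi16 at 8.18 CPM against 193. In all, 264 members (49.8%) also met a rule for adventitial fibroblast-like cells, which counts Dpp4 among its 3 genes, and 303 (57.2%) met that for alveolar fibroblast-like cells (at least 2 of Npnt, Tcf21 and Ces1d), with Npnt at 234 CPM and Ces1d at 411 CPM in members against 1060.5 and 555 CPM in other cells. Scrublet marked 46 kept cells (0.381%) as doublets, 4 of them members, all in Fas-/- 3 weeks. Because this share was low the caller was treated as not having worked, which was not tested. Doublets among members were not removed.

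Against 1026 adventitial fibroblast-like cells (at least 2 of Pi16, Clec3b and Dpp4, with a sum of 3 or more UMIs), 24.5% of 11372 genes were called higher and 24.4% lower. All 19 mesothelial genes tested were higher (median 5.31), as were 15 of 16 junction genes. The 4 MHC class II genes were all higher in members, H2-Ab1 at 41.6 against 2.64 CPM (log2 fold change 3.86, SE 0.22), H2-Aa at 28.7 against 2.24 and Cd74, the invariant chain, at 107 against 10.4. C3 was higher by 1.87, but of 15 complement and acute-phase genes 5 were higher and 4 lower (median −0.12). Of 17 fibrotic matrix genes 15 were lower, Col1a1 by 3.03 on the log2 scale. Dcn was lower by 0.62 and Fas by 1.00 (SE 0.17), so that the higher Dcn of members was a difference from all other cells together.

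Among genes outside the rule, the 10 with the largest log2 fold change that had the same direction in all 5 libraries and 50 CPM or more in the higher class were A730046J19Rik (8.17), Slurp1 (8.05), Chst4 (7.95), Pcnx2 (7.67), Myl7 (7.61), Grip1 (7.54), Cldn15, Muc16, Bnc1 and Lgals2 (7.24). Slurp1 encodes a secreted Ly6-type protein, Chst4 a sulfotransferase of carbohydrates and Lgals2 a galectin. The 10 with the largest decrease were the surfactant gene Sftpc (−7.19), the globin genes Hba-a2, Hba-a1, Hbb-bt and Hbb-bs (−6.09 to −6.62, near-identical copies between which reads can be split), Aspn, a small matrix proteoglycan (−6.31), and the endothelial genes Cldn5, S1pr1, Clec1a and Cyyr1 (−6.02 to −6.21). Altogether 49 genes outside the rule were specific to members, being called 4 or more higher on the log2 scale than all other cells, 3 or more higher than each of the adventitial-like, alveolar fibroblast-like, alveolar epithelial-like and endothelial-like sums, and at 50 CPM or more. Of these, 9 were on the mesothelial list. The 10 with the most UMIs were Igfbp5, Slpi, Gm20186, Sfrp2, Nkain4, Aldh1a2, Rspo1, Slurp1, Cldn15 and Slc9a3r1, which encodes a scaffold of ezrin. Others were the receptor tyrosine kinase Met, the endocytic receptor Lrp2, the cytokine Il18 and the extracellular matrix gene Fras1.

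Members of different libraries were then compared. With 1 library a condition these comparisons are ratios of CPM without a test, and a gene counted as past the fold at a log2 ratio of 1 or more either way, after adding 1 UMI to each sum, where both sums together held at least 20 UMIs. Relative to naive, 7.09% of 9757 genes were higher and 3.26% lower in Fas+/+ 3 weeks, 6.25% and 3.84% of 8990 in Fas-/- 3 weeks, 5.83% and 3.09% of 8607 in Fas+/+ 6 weeks, and 5.81% and 2.90% of 8928 in Fas-/- 6 weeks. These 4 comparisons share the naive library with its 22 members and 488861 member UMIs. Relative to Fas+/+, 1.75% of 10428 genes were higher and 2.78% lower in Fas-/- members at 3 weeks, and 1.72% and 2.83% of 9782 at 6 weeks. Member UMIs numbered 2301077 and 1613684 at 3 weeks and 1282599 and 1566587 at 6 weeks (Fas+/+, Fas-/-).

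Of 19 mesothelial genes counted, the genes of the rule left out, 1 was past the fold in each bleomycin library relative to naive: Slpi was lower at 3 weeks (log2 ratio −1.27 in Fas+/+ and −1.46 in Fas-/-) and Krt18 higher at 6 weeks (1.10 and 1.05), counts too small to be set apart from the shares of all genes given above. None was past it between the genotypes at either time, with a median log2 ratio of −0.10 at 3 weeks and 0.13 at 6 weeks. The summed CPM of the list without the genes of the rule was 24627 in naive members, 19982 and 17447 at 3 weeks and 19023 and 19839 at 6 weeks (Fas+/+, Fas-/-). Slurp1 was at 1604 CPM in naive, 242 and 398 at 3 weeks and 407 and 770 at 6 weeks, with UMIs in 16 of 22, 45 of 127, 50 of 150, 30 of 89 and 59 of 142 cells, so that it was highest in naive.

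Ccl2, Lcn2 and Ly6a were low in naive members and higher after bleomycin. Of the 10 chemokines, 5, 7, 6 and 6 had enough UMIs to be compared with naive in Fas+/+ 3 weeks, Fas-/- 3 weeks, Fas+/+ 6 weeks and Fas-/- 6 weeks, and 4, 4, 4 and 3 of them were past the fold higher and 1, 0, 0 and 1 lower. Of 13 complement and acute-phase genes compared, 2, 4, 3 and 4 were past it higher and 2, 2, 1 and 1 lower in the same order, with median log2 ratios of −0.12, −0.07, 0.44 and 0.32. Ccl2, a monocyte chemokine, had 0 UMIs in naive members (exact 95% Poisson upper limit 7.55 CPM), 54.8 CPM in Fas+/+ 3 weeks, 80.6 in Fas-/- 3 weeks, 161 in Fas+/+ 6 weeks and 42.8 in Fas-/- 6 weeks. In the first 3 of these the UMIs came from 18, 16 and 10 cells with up to 43.2% of them in 1 cell, and other cells held 5.66 CPM in naive and 95.5, 45.0 and 151 CPM in these libraries. Lcn2, the iron-binding protein lipocalin 2, had 0 UMIs in naive, 16.1 and 13.0 CPM at 3 weeks and 101 and 65.1 CPM at 6 weeks, against 2.15 CPM in naive and 49.6 to 253 CPM after bleomycin in other cells. Ly6a, the surface antigen Sca-1, stood at 2.05 CPM in naive (1 UMI, interval 0.0518 to 11.4), 68.7 and 20.5 at 3 weeks and 164 and 74.7 at 6 weeks. Other cells had 147 CPM of Ly6a in naive and 201 to 1054 after bleomycin.

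MHC class II genes, which present antigen to helper T cells, were highest in Fas+/+ members at 6 weeks. Cd74 was at 6.14 CPM in naive (3 UMIs), 72.1 and 39.7 at 3 weeks and 287 and 131 at 6 weeks (Fas+/+, Fas-/-). All 4 class II genes were past the fold lower in Fas-/- than in Fas+/+ members at 6 weeks (median log2 ratio −1.22), and so they were in other cells (median −2.31). The other cells differed in make-up, because endothelial-like cells were 40.1% of Fas+/+ 6 weeks and 8.53% of Fas-/- 6 weeks. The part of this in the ratio of other cells was not tested. Among members Cd74 had UMIs in 24 of 89 and 24 of 142 cells, and 35.6% and 31.2% of them were in 1 cell. Of 12 interferon and MHC class I genes, Ifit1, Ifit3 and Isg15, antiviral response genes, were past the fold lower in Fas-/- than in Fas+/+ members at 3 weeks (log2 ratios −1.45, −2.16 and −1.37), against 0.16, −0.54 and −0.29 in other cells. None of the 12 was past it at 6 weeks. In bulk at 3 weeks 3 of the 12 were called higher in Fas-/- than in Fas+/+ and none lower by edgeR (median 0.42, against 0.165% of all genes called higher). Among them were Ifit3 (1.18, adjusted p = 0.024) and Irf7 (1.10, adjusted p = 0.023), while Ifit1 (0.97, adjusted p = 0.18) and Isg15 (1.02, adjusted p = 0.22) were not called. The 12 genes summed to 2968, 2835, 2654 and 4517 CPM in Fas-/- and 3896.5, 2606, 2515 and 2474 CPM in Fas+/+, where the highest library of each group also stood apart from the others in its counts over all genes (chi-square per gene 148 to 197 and 176 to 187). Without either of these libraries 3 genes were called, but none was without Fas+/+ replicate 2 or 3, and 1 was without Fas-/- replicate 1, 2 or 3.

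Prg4, which encodes lubricin, stood at 2.05 CPM in naive (1 UMI), 13.5 and 33.5 at 3 weeks and 119 and 151 at 6 weeks, with UMIs in 1, 11, 21, 25 and 26 cells. The order of the libraries was the same in other cells, at 0 to 6.92 CPM. Immediate early genes were past the fold higher than naive for 3 or 4 of 11 genes in each bleomycin library, Fosb and Hspa1a in all 4, with a median log2 ratio of 0.62 to 0.93, while the median in other cells was −0.41 to −0.49. Of 13 or 14 fibrotic matrix genes compared with naive, 1 was past the fold higher in each bleomycin library and 3, 2, 1 and 3 lower (Fas+/+ 3 weeks, Fas-/- 3 weeks, Fas+/+ 6 weeks, Fas-/- 6 weeks), with median log2 ratios of −0.72, −0.42, −0.18 and −0.36 in members and −0.16, 0.28, 0.74 and 0.96 in other cells. Spp1, which encodes osteopontin, had 0 UMIs in naive members, 20 to 29 cells with UMIs at 3 weeks, and 263 UMIs in 79 of 142 Fas-/- members at 6 weeks (168 CPM). The 920 UMIs in Fas+/+ 6 weeks were in 48 of 89 cells, 90.3% of them in 1 cell. Other cells had 3994 and 8188 CPM of Spp1 at 6 weeks, and the part of free RNA in the members' UMIs was not tested. Fn1, fibronectin, was past the fold lower than naive in 3 of the 4 bleomycin libraries (log2 ratio −1.22 to −1.89), with positive ratios in other cells (0.64 to 1.82).

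Between the genotypes at 3 weeks Mmp2, a gelatinase, was at 86.8 CPM in Fas-/- (49 of 150 cells) and 19.1 in Fas+/+ (23 of 127 cells), a log2 ratio of 2.15 against 0.54 in other cells. At 6 weeks Myl7, the atrial myosin light chain, was at 534 CPM in Fas-/- (61 of 142 cells) and 74.8 in Fas+/+ (22 of 89 cells), with 515 and 289 CPM at 3 weeks and 268 in naive. In other cells Myl7 was at 0.195 to 5.24 CPM, with a log2 ratio at 6 weeks of 3.35 (2.40 against 0.208 CPM) beside 2.82 in members. At 6 weeks the neuropeptide receptor Npy1r (83.6 and 17.9 CPM), Ttc39a (56.8 and 12.5) and Proser2 (51.1 and 14.8) were also higher in Fas-/- members, with log2 ratios of 2.18, 2.13 and 1.74 against 0.57, −0.45 and −0.75 in other cells. Tnfrsf11b, the decoy receptor osteoprotegerin, was lower in Fas-/-, at 9.58 against 54.6 CPM at 6 weeks (9 of 142 and 19 of 89 cells) and 10.5 against 46.5 CPM at 3 weeks (10 of 150 and 24 of 127 cells). Lama3, the laminin chain described above, was at 104 CPM in naive, 43.9 and 49.0 at 3 weeks, 25.7 in Fas+/+ 6 weeks and 4.47 in Fas-/- 6 weeks (6 of 142 cells).

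**Figure D3:**
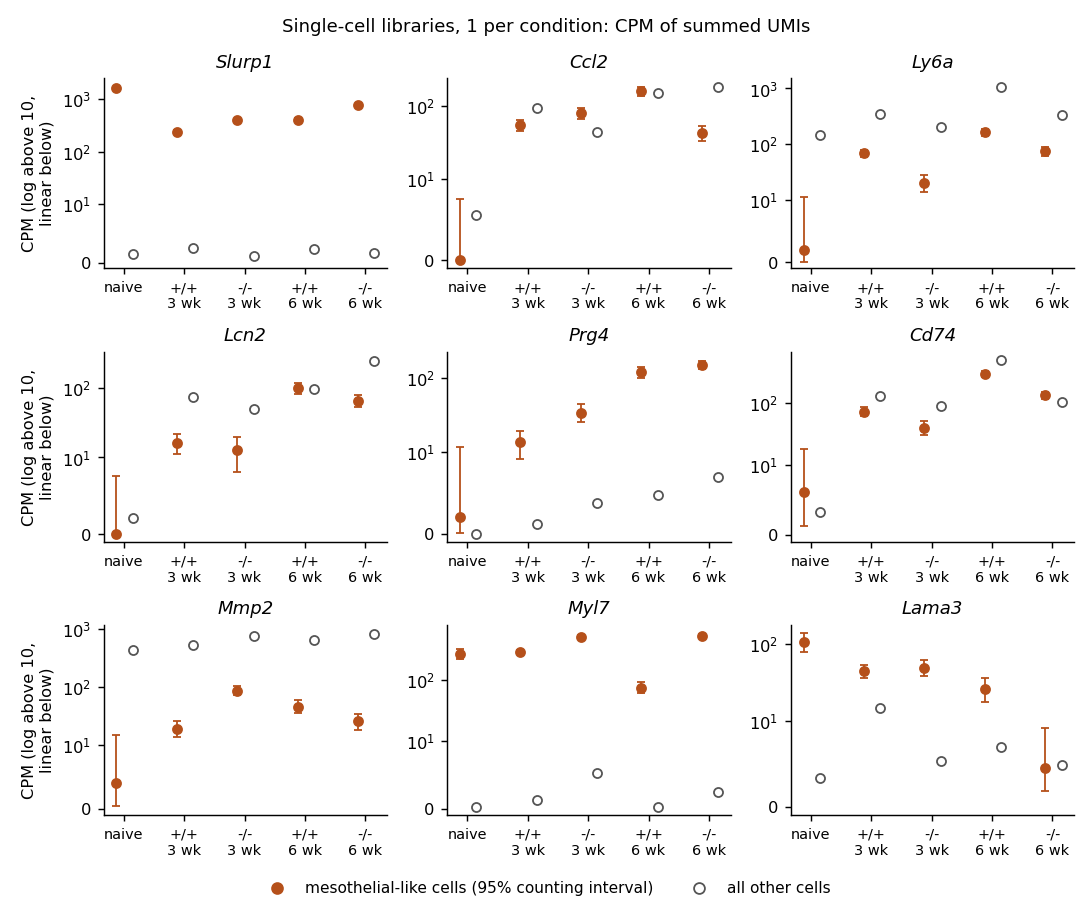
CPM of summed UMIs (y axis, logarithmic above 10 and linear below) of 9 genes in the 5 single-cell libraries (x axis; +/+ and -/- are Fas+/+ and Fas-/-, wk is weeks after bleomycin). Filled points are mesothelial-like cells with exact 95% Poisson intervals of counting error and open points all other cells; Slurp1 is highest in naive members (1604 CPM) and Myl7 at 6 weeks differs between Fas-/- (534 CPM) and Fas+/+ (74.8 CPM).

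Several of the largest ratios rested on 1 cell or were shared with all other cells. In Fas+/+ 3 weeks 91.2% of the 543 UMIs of the epithelial gene Ager were in 1 cell, as were 87.2% of Hopx, 92.8% of Igfbp2 and 72.3% of Vegfa. In Fas+/+ 6 weeks 1 cell held 95.6% of Cxcl14 and 61.8% of Saa3, and in naive 1 cell held 100% of the UMIs of Pnoc and Col15a1. The ratios of Bc1, Wdr89, Gstp1, Rpl10-ps3, Gm8797, Gm2000, Rps27rt, Plac9b, Hbb-bs, Ccdc85b, Hist2h2aa1, Nutf2 and Ramp2 had the same sign in other cells, and several of these are ribosomal or other pseudogene copies whose reads may belong to a parent gene. The remaining genes among the 5 highest and 5 lowest of a pair also had ratios of the same sign in other cells. They were Plac8 and Ccl7, higher after bleomycin, Lbh and Mfap4, of which 54.2% and 59.9% of UMIs were in 1 cell, Gatm (98.6% in 1 naive cell), Wfdc2 (51.0% in 1 cell) and Tesc. At 6 weeks Tesc was at 58.5 CPM in Fas+/+, with 40% of UMIs in 1 cell, and at 7.66 CPM in Fas-/- (6 cells).

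Bulk RNA-seq gives replicated values for the same genes, and its counts did not choose the cells. Of 22 mesothelial genes tested, 16 were called lower than naive at 3 weeks after bleomycin in Fas+/+, against 19.2% of all genes. In Fas-/- 15 were called lower and 1 higher, against 14.8% of all genes lower. None of the 22 was called lower than naive at 6 weeks. In bulk, fewer cells of a type and less RNA per cell cannot be told apart. In the single-cell libraries, 1 per condition, members were 3.65% of cells in naive and 4.77% and 5.75% at 3 weeks (Fas+/+, Fas-/-). The list without the genes of the rule summed to 24627 CPM in naive members and 19982 and 17447 at 3 weeks. At 6 weeks it summed to 19023 and 19839 CPM. How these values relate to the bulk levels was not tested. Upk3b was at 200.5, 389, 193 and 321 CPM in the 4 naive libraries. It was at 105, 86.7, 81.5 and 165 CPM in Fas+/+ and 119, 122, 136 and 115 CPM in Fas-/- at 3 weeks. At 6 weeks it was at 209, 180, 273 and 273 CPM in Fas+/+ and 170.1, 328, 266 and 273 CPM in Fas-/-. Every library at 3 weeks lay below every naive and every 6-week library. The log2 fold change of Upk3b was −1.33 (SE 0.255, adjusted p = 6.1e-04) in Fas+/+ and −1.16 (SE 0.25, adjusted p = 0.0025) in Fas-/- at 3 weeks relative to naive, and 1.09 (adjusted p = 0.0052) and 1.07 (adjusted p = 0.016) at 6 relative to 3 weeks, by edgeR's quasi-likelihood test over all 15773 genes. Relative to naive, Upk3b at 6 weeks was not called (−0.24, adjusted p = 0.66 in Fas+/+ and −0.09, adjusted p = 0.89 in Fas-/-).

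Of the 24 genes on the mesothelial list 22 passed the filter on low counts, Itln1 and Calb2 being the others. Relative to naive, 16 were lower and none higher in Fas+/+ 3 weeks (median log2 fold change −0.95), where 19.2% of all genes were lower and 22.1% higher. In Fas-/- 3 weeks 15 were lower and 1, Krt8, higher (median −0.74), where 14.8% of all genes were lower and 17.2% higher. From 3 to 6 weeks 15 were higher and none lower in Fas+/+ (median 0.89, against 12.0% of all genes higher and 10.9% lower), and 12 were higher and none lower in Fas-/- (median 0.72, against 4.48% and 4.54%). The last count was 6 to 8 without any library of Fas-/- 3 weeks or without replicate 2, 3 or 4 of Fas-/- 6 weeks. The 15 of Fas-/- 3 weeks fell to 10 without naive replicate 2, which had the highest Upk3b.

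Msln was at 114, 296, 150.0 and 206 CPM in naive, at 64.8, 87.8, 81.9 and 142 CPM in Fas+/+ 3 weeks and at 118, 129, 130.1 and 109 CPM in Fas-/- 3 weeks. The groups overlapped, and Msln was called in Fas+/+ (−1.03, SE 0.27, adjusted p = 0.0055) and not in Fas-/- (−0.66, SE 0.27, adjusted p = 0.067). Lrrn4 was lower in both (−1.12 and −1.11, adjusted p = 0.0035 and 0.0054). Gpm6a was called in Fas+/+ (−0.97, adjusted p = 0.0042) and not in Fas-/- (−0.62, adjusted p = 0.057), and was higher at 6 than at 3 weeks in both (1.25 and 1.16, adjusted p = 0.0017 and 0.0092). Upk1b was at 135, 148, 139 and 144 CPM in naive and at 48.6 to 96.6 in Fas+/+ and 73.8 to 94.8 in Fas-/- at 3 weeks (−1.09 and −0.76, adjusted p = 5.5e-05 and 0.0016). Bnc1 (−1.24 and −1.16), Cldn15 (−1.20 and −0.94), Rspo1 (−0.97 and −0.74) and Aldh1a2 (−0.86 and −0.64) were lower at 3 weeks in both genotypes and higher at 6 than at 3 weeks in both. Wt1 ranged from 12.1 to 37.5 CPM in naive and was called lower in Fas-/- 3 weeks but not in Fas+/+ 3 weeks (−0.37, adjusted p = 0.48), at −1.08 (SE 0.40, adjusted p = 0.0496), a call that was lost when the filter on low counts was dropped (adjusted p = 0.062).

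Most list genes called at 6 weeks were keratins. Relative to naive at 6 weeks, 4 genes were higher and none lower in Fas+/+, Krt8 (1.32), Krt7 (1.09), Krt18 (0.92) and Pdpn (0.79), and 2 were higher and none lower in Fas-/-, Krt8 (1.10) and Krt18 (0.75), with 1 of them left without naive replicate 1 or 3 or without Fas-/- 6 weeks replicate 2. In these comparisons 3.57% and 1.74% of all genes were higher and lower in Fas+/+ and 3.66% and 2.81% in Fas-/-. Krt8 was at 7.54, 13.5, 8.55 and 12.1 CPM in naive, 21.8, 32.8, 25.7 and 23.97 CPM in Fas+/+ 6 weeks and 14.1, 26.6, 25.9 and 22.9 CPM in Fas-/- 6 weeks. The same keratins are markers of lung epithelium. All 6 alveolar epithelial markers were called higher in Fas+/+ 6 weeks, with a summed level of 633, 1402, 709 and 498 CPM against 95.4, 26.04, 117 and 48.0 CPM in naive, their most abundant gene being Ager. None of the 6 was called in Fas-/- 6 weeks (median 2.51), where all 6 had an unadjusted p under 0.05 and the summed level was 112, 313, 369 and 158 CPM. Their part in the keratin levels was not tested.

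**Figure D4:**
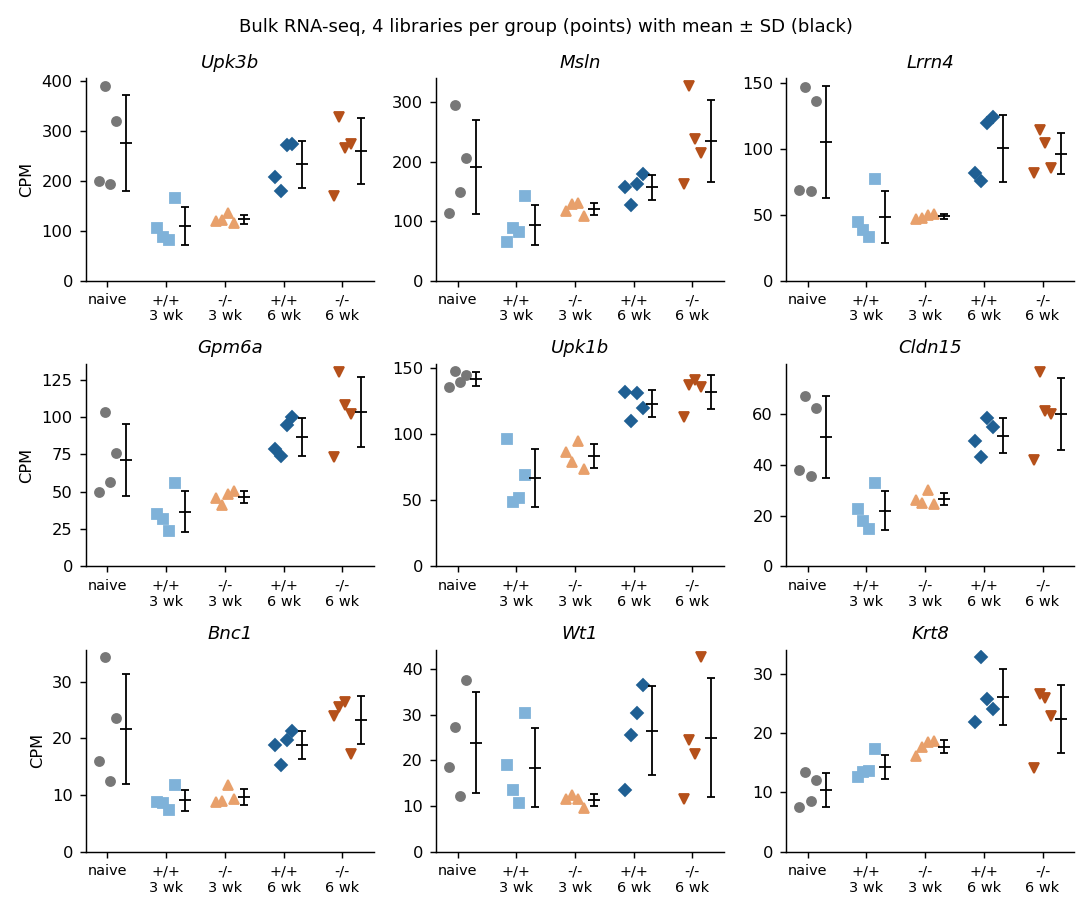
CPM in bulk RNA-seq (y axis) of 9 mesothelial genes in the 5 groups (x axis; +/+ and -/- are Fas+/+ and Fas-/-, wk is weeks after bleomycin); points are the 4 libraries of a group and black bars their mean ± SD. Upk3b at 3 weeks (81.5 to 165 CPM) lies below all naive and 6-week libraries, whereas Krt8 is highest at 6 weeks.

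The 49 member-specific genes, found in single cells, were then followed in bulk. At 3 weeks relative to naive 25 were lower and 1 higher in Fas+/+ (median −0.79) and 24 were lower and 1 higher in Fas-/- (median −0.61), where 19.2% and 14.8% of all genes were lower and 22.1% and 17.2% higher. The 1 higher in both was Apol9a (0.69 and 1.25), an apolipoprotein L gene. Among the 40 genes outside the mesothelial list the counts were 17 lower and 1 higher in Fas+/+ and 16 lower and 1 higher in Fas-/-. The largest decreases were those of Spink2, a protease inhibitor (−2.34 and −1.49), and Lypd2, a Ly6-type gene (−1.80 and −2.02), and Met (−0.70 and −0.82) and Lrp2 (−0.87 and −1.08) were lower too. From 3 to 6 weeks 21 were higher and none lower in Fas+/+, and 14 were higher and none lower in Fas-/-, against 12.0% and 4.48% of all genes higher. At 6 weeks relative to naive none was called in Fas+/+, and 3 were higher in Fas-/-, A730046J19Rik (1.51), Prr15 (1.26) and Anxa8 (1.01), against 3.66% of all genes. Single libraries decided several of these counts. The 24 of Fas-/- 3 weeks fell to 15 without naive replicate 2, the 14 of Fas-/- from 3 to 6 weeks to 6 or 7 without replicate 1, 2 or 4 of Fas-/- 3 weeks or replicate 2, 3 or 4 of Fas-/- 6 weeks, and the 3 of Fas-/- 6 weeks to between 0 and 2 without any 1 library. In Fas+/+ 6 weeks 1 was called without naive replicate 2 or without Fas+/+ replicate 1.

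**Figure D5:**
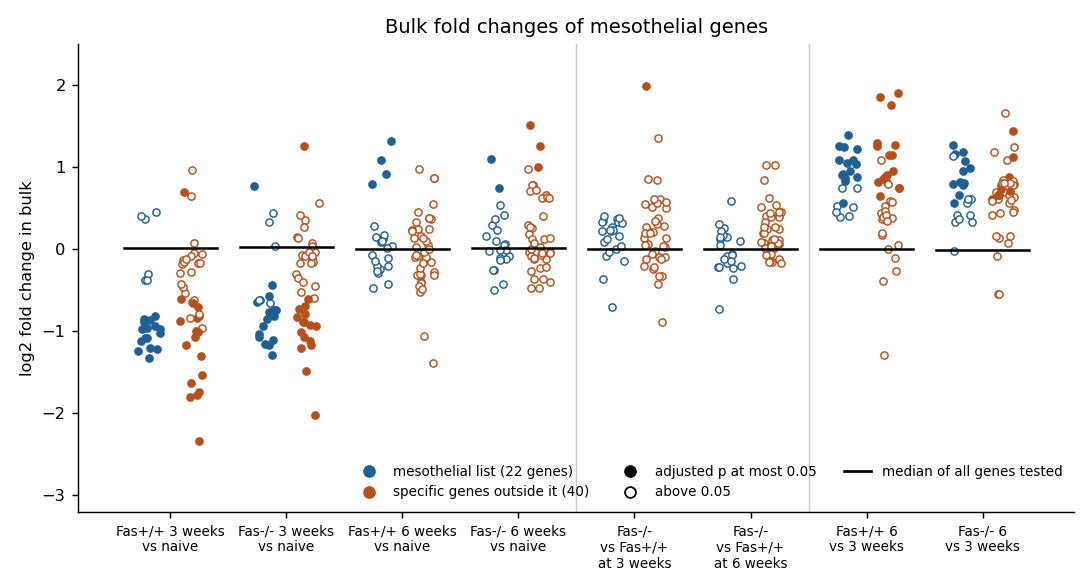
Log2 fold change in bulk (y axis) of mesothelial list genes and of member-specific genes outside the list in 8 comparisons (x axis); filled points passed an adjusted p of 0.05 and the black line is the median of all genes tested. At 3 weeks 16 (Fas+/+) and 15 (Fas-/-) of the 22 list genes are lower than in naive, and none is called between the genotypes.

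Between Fas-/- and Fas+/+ mice none of the 22 list genes was called in bulk at 3 weeks (median 0.22) or at 6 weeks (median −0.07), with 2 and 3 of them at an unadjusted p under 0.05. Few genes were called at all between the genotypes, 0.165% of all genes higher and 0.00634% lower at 3 weeks and 0.0254% each way at 6 weeks. The study, with DESeq2, reported more genes as higher in Fas-/- at 6 weeks, enriched for matrix pathways. Its methods give no threshold for these genes, and its list was not compared here. In the present fits DESeq2 called none of the 22 at either time. With each library left out in turn edgeR called 1 at 3 weeks, without Fas+/+ replicate 1, and none at 6 weeks. Of the 49 specific genes 1 was called, Myl7 at 3 weeks. It was at 6.57, 6.70, 5.69 and 6.27 CPM in Fas-/- and 1.23, 1.05, 0.975 and 2.99 CPM in Fas+/+, groups that did not overlap (1.99, SE 0.365, adjusted p = 0.030). None of the 49 was called at 3 weeks without Fas+/+ replicate 2 or 3 or without Fas-/- replicate 1, 2 or 3, and 2 were without replicate 4 of either group. Naive libraries had 3.27, 7.03, 6.11 and 3.25 CPM of Myl7, and Fas+/+ 3 weeks was lower than naive (−1.63, adjusted p = 0.0020). At 6 weeks Myl7 was at 5.74, 14.8, 11.3 and 6.69 CPM in Fas-/- and 5.37, 5.17, 6.20 and 4.78 CPM in Fas+/+ and was not called (0.84, SE 0.33, adjusted p = 0.48).

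Other cell types moved in bulk at the same time as the mesothelial genes. The summed level of the mesothelial list was 4300 ± 1347 CPM in naive, 2320 ± 538 and 2415 ± 148 at 3 weeks and 3686 ± 456 and 3803 ± 559 at 6 weeks (Fas+/+ and Fas-/-, SD, n = 4 each), and Igfbp5 was its most abundant gene. At 3 weeks all 6 endothelial markers were higher in Fas+/+ and 5 of 6 in Fas-/-, as were all 5 hematopoietic and all 6 alveolar epithelial markers tested in both. Smooth muscle and pericyte markers were lower (5 and 6 of 6), alveolar fibroblast markers too (6 and 4 of 6), and adventitial markers were lower for 3 and 4 of 6. Summed endothelial markers, with Cdh5 the most abundant, stood at 8259, 2943, 2542 and 2310 CPM in Fas+/+ 3 weeks and 1011, 576, 630 and 7527 CPM in Fas-/- 3 weeks, against 227 ± 106 in naive. Red cell and platelet genes summed to 4875 CPM in naive and 49.5 and 25.2 CPM at 3 weeks. With Fas+/+ replicate 1 left out 15 list genes were lower at 3 weeks, and with Fas-/- replicate 4 left out 11 were. The part of the other cell types in the result was not tested.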

How the data were processed

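Members and gene lists were chosen with earlier results of these data known. Single-cell UMI counts were deposited as matrices that the authors made with Cell Ranger (3.0.2 in the file header, GRCm38, 31053 features). Bulk counts per Ensembl gene were deposited by the authors as a table of 47729 genes, made per the labels and methods with skewer, HISAT2 and HTSeq from stranded polyA libraries, and the authors tested them with DESeq2. Values of CPM were computed here. Thresholds for cells, classes and folds are given where they are first used. UMIs of members and of other cells were summed per library (classes with 10 or more cells) and tested with edgeR 4.0.16 (quasi-likelihood, TMM, library as a block); genes of the rule take no part as findings, and because members were chosen on measured expression these p-values describe the split of the same cells. Bulk counts were tested with edgeR in 1 fit over 20 libraries without a replicate block, with Benjamini-Hochberg adjustment over 15773 genes. DESeq2 1.42.0, other filters, other thresholds and leaving out each library were the alternatives. Leaving out barcode copies, counting per cell outside the endothelial-like class, dropping the genes of the rule from the mesothelial list between libraries, and leaving out libraries for the interferon genes were chosen after seeing the data. Tests were checked on simulated counts.

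Same-numbered bulk libraries deviated together in 1 comparison, Fas-/- 6 weeks against naive (r = 0.16, 0.31, 0.17 and 0.28 over genes for the 4 numbers), and with mixed signs in the others. No 2 libraries of a group had counts alike within sampling noise (chi-square per gene at least 7.23). Genes named are those of the lists, the 10 highest and 10 lowest against other cells, the 5 highest and 5 lowest for each of 6 pairs of libraries, and the 10 specific genes with the most UMIs. Scrublet, run in Python 3.11.15 with scanpy 1.11.5, was not used to remove cells. Promoter windows came from RefSeq. No window for Msln or Wt1 was among them. All intervals on counts and shares cover counting error only.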

Additional observations from a re-analysis of the deposited data

Results flagged for a closer look

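In bulk, Igfbp5 in Fas-/- 3 weeks replicate 3 stood at 1186.1 CPM, apart from the other libraries of its group at 1062.6 to 1082.2 CPM. Its gap to the nearest of them was 0.841 of the range of the group, over the 95% critical value of Dixon's test for 4 samples. This was 1 of 110 groups of 4 examined, and chance gives about 1 in 20.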

How the results depend on the processing

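Of 358 alternative values for 34 summary results, 291 kept their direction and stayed within the spread or within 1.5 times, and 67 moved. The share of members moved at 6 weeks and in Fas-/- 3 weeks. With a marker sum of 5 or more it was 3.94% in Fas-/- 6 weeks. With all 3 markers required it was 2.16% in Fas+/+ and 3.67% in Fas-/- at 6 weeks, without barcode copies 1.99% and 3.14%, without copies and outside the endothelial-like class 3.46% and 3.49%, and outside that class alone 4.59% in Fas+/+. Among cells thinned to 3000 UMIs it was 6.72% in Fas-/- 3 weeks (124 of 1844) and 3.73% in Fas-/- 6 weeks (81 of 2171). This was a smaller set of cells, because those with too few UMIs to be thinned were left out, among them 23 and 62 members. With a log2 fold change of 1 or more also required, 1490 genes were higher and 2020 lower than in other cells, and 1353 and 1427 against adventitial fibroblast-like cells. DESeq2 called 1476 higher and 1180 lower against epithelial-like cells.

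Genes past the fold between libraries numbered 418, 345, 287 and 285 relative to naive (Fas+/+ 3 weeks, Fas-/- 3 weeks, Fas+/+ 6 weeks, Fas-/- 6 weeks) and 178 and 153 between genotypes (3 and 6 weeks) with a minimum of 50 UMIs, against 1010, 907, 768, 778, 473 and 445 as reported. With 5 UMIs added they numbered 584, 475 and 476 in the last 3 relative to naive and 288 and 270 between genotypes. Among members with a marker sum of 5 or more, ratios turned for genes that had rested on 1 cell. Relative to naive they were Pnoc 1.48, Col15a1 3.48 and Gatm 2.72 in Fas+/+ 3 weeks, Col15a1 1.83 and Gatm 1.39 in Fas-/- 3 weeks, Pnoc 1.24 in Fas+/+ 6 weeks and Col15a1 2.76 in Fas-/- 6 weeks. Between genotypes they were Hopx 0.44 at 3 weeks and Cxcl14 1.32 at 6 weeks, all on the log2 scale.

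Specific genes called in bulk by DESeq2 numbered 1 in Fas+/+ 6 weeks and 6 in Fas-/- 6 weeks against naive, 2 between genotypes at 3 weeks and 25 in Fas-/- from 3 to 6 weeks. With only the 2 groups of a comparison fitted they numbered 1 in Fas-/- 6 weeks, 0 between genotypes at 3 weeks and 22 in Fas-/- from 3 to 6 weeks. With the replicate number as a block, 2 specific genes were called between genotypes at 3 weeks. In the comparison with pairing, Fas-/- 6 weeks against naive, the block gave 2 mesothelial and 4 specific genes against 2 and 3 without it. Elsewhere the block moved no count of lower or higher genes by over 1.5 times, other than higher mesothelial genes at 3 weeks (0 to 2 in Fas+/+, 1 to 2 in Fas-/-) and higher specific genes in Fas+/+ 3 weeks (1 to 0).

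Leaving out 1 library each, genes higher and lower numbered 2512 to 3075 and 2801 to 3559 against other cells, 2334 to 2698 and 2384 to 2740 against adventitial-like cells, and 1623 to 2128 and 1268 to 1755 against epithelial-like cells. Mesothelial genes called in bulk numbered 14 to 17 and 10 to 17 at 3 weeks (Fas+/+, Fas-/-), 4 to 4 and 1 to 2 at 6 weeks against naive, 0 to 1 and 0 to 0 between genotypes, and 14 to 17 and 6 to 12 from 3 to 6 weeks. Specific genes numbered 20 to 29, 15 to 26, 0 to 1, 0 to 2, 0 to 2, 0 to 0, 15 to 27 and 6 to 18 in the same order. The cause of these differences was not tested. Of the mesothelial genes named in bulk, 316 alternative values held and 9 calls were lost. The 22 naive members limit what can be read from naive.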
